A study of Homo sapiens with 6 samples.

Results

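The genes described here encode the folding machinery of the endoplasmic reticulum (ER) and the sensors, transcription factors and disposal factors of the unfolded protein response. They were named by a list of 37 genes. For each gene, the probe set with the highest mean over the 6 arrays was taken among those that the platform annotation assigns to that gene alone. Such a probe set existed for 36 of the 37 genes, out of 19775 genes on the array. SYVN1, the ubiquitin ligase of ER-associated degradation, had only 1 probe set, which is annotated to several genes, and its level is not given. All 36 genes passed the filter on dim probe sets, as did 13704 genes in all.

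The cells were MDA-MB-231, an established line from a human breast cancer without hormone receptors or amplified HER2. They received TCI04, a code-named compound, at 50 µM, or phosphate-buffered saline (PBS) alone, for 48 h. Each group held 3 arrays, and all cells were grown in the same serum-containing medium. Whether the replicates of a group were separate cultures is not stated, and the p-values then reflect only how much these arrays varied, which may be technical variation.

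Proteins that enter the secretory pathway fold in the ER with the help of chaperones, lectins and disulfide isomerases. When unfolded proteins build up, 3 sensors in the ER membrane respond. IRE1, encoded by ERN1, splices the mRNA of the transcription factor XBP1. PERK, encoded by EIF2AK3, phosphorylates the translation factor eIF2-alpha, which favours translation of ATF4. ATF6 is cut in the Golgi to release a transcription factor. XBP1 and ATF6 raise transcription of ER chaperones and of the degradation machinery, in part through a promoter sequence called the ER stress response element (ERSE).

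The ERSE joins a CCAAT box to CCACG across a spacer of 9 bases, and was searched as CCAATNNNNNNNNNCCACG on both strands of the RefSeq promoter windows (GRCh38.p14, from 250 bases before to 50 bases after each start site). It was present in 7 of the 35 listed genes with a window, and in 25 of 27305 genes with a window overall (0.0916%). These 7 genes were XBP1, HSPA5, HSP90B1, CALR, CANX, PDIA6 and CRELD2. HSP90B1 held 2 sites. The sites are printed 5′ to 3′ on the strand of the gene because the element is known for ER chaperone genes. It was not used to choose the group, but its larger share in a list of such genes is no independent result. The other 28 genes with a window lacked it there. Capitals mark the ERSE, which begins with CGTGG where it lies on the opposite strand.
XBP1, chr22:28800583-28800641, minus strand: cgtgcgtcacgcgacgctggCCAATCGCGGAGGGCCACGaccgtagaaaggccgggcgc
HSPA5, chr9:125241371-125241429, minus strand: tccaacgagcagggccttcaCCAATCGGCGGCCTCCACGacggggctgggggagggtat
PDIA6, chr2:10812848-10812876, minus strand: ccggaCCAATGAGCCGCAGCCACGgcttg
CANX, chr5:179698773-179698801, plus strand: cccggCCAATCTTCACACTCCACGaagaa
HSP90B1, chr12:103930211-103930239, plus strand: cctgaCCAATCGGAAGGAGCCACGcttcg
HSP90B1, chr12:103930301-103930359, plus strand: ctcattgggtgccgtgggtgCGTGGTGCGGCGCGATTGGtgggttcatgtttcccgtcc
CALR, chr19:12938364-12938422, plus strand: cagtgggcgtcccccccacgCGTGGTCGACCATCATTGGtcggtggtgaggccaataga
CRELD2, chr22:49918534-49918592, plus strand: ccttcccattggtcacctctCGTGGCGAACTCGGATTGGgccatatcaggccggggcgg

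A related element, ERSE-II, is ATTGG followed by any base and CCACG, and was searched on both strands. It was present in HERPUD1, SDF2L1 and HYOU1, which is 3 of the 35 genes (8.57%) and compares with 19 of 27305 genes (0.0696%). HYOU1 held 2 such sites. The sites of all 3 genes lie before the start site and outside annotated genes, and capitals mark the element.
HERPUD1, chr16:56932005-56932055, plus strand: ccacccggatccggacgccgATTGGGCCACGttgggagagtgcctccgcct
SDF2L1, chr22:21642094-21642144, plus strand: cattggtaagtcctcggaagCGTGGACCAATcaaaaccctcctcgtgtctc
HYOU1, chr11:119057360-119057410, minus strand: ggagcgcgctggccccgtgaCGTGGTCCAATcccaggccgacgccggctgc
HYOU1, chr11:119057254-119057304, minus strand: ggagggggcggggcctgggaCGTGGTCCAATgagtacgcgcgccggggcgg
The element TGACGTGG, bound by XBP1 and ATF6, was found in HYOU1, where it overlaps the first of the ERSE-II sites, and in SSR3, against 253 of 27305 genes (0.927%). The ATF4-type element TGATGNAA was found in HERPUD1 and CREB3L2, 2 of 35 genes (5.71%), against 4.46% of all genes. A match is a run of letters in the window and is not evidence that a factor binds there.

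The values are MAS5 signals, which condense the probes of a probe set into a linear value, with a trimmed mean of 500.1 on every array. The cell line's own markers VIM, CD44, EGFR, AXL and CAV1 were all above the filter, and of 6 epithelial and hormone receptor markers PGR and CDH1 were below it, while ERBB2, GATA3, EPCAM and ESR1 passed. The summed signal of those 6 was 1532 to 1726 with TCI04 and 1769 to 1890 with PBS. Of the leukocyte and endothelial markers measured, PTPRC, CDH5 and KDR lay below the filter and CD3E and PECAM1 above it. The summed leukocyte signal was 52.9 to 129 with TCI04 and 55.9 to 152 with PBS, and the summed endothelial signal was 190.0 to 217 with TCI04 and 222 to 258 with PBS. The ratio of 3' to 5' control signals is higher where RNA is less intact. For ACTB it was 1.71, 1.70 and 3.33 in TCI04 replicates 1, 2 and 3, and 1.64 to 1.72 in the PBS arrays. For GAPDH it was 0.97, 1.08 and 1.21 in TCI04 replicates 1, 2 and 3, and 0.98 to 1.07 in the PBS arrays. The part of the markers and ratios in the results was not tested, apart from the values given without TCI04 replicate 3. The groups were compared with limma on log2(signal + 10.96), a scale on which fold changes of dim probe sets are understated. In such bulk RNA, fewer cells with a transcript and less of it per cell cannot be told apart.

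No gene of the ER group passed the adjusted threshold of 0.05 between TCI04 and PBS. The smallest adjusted p among the 36 was 0.699 (limma, Benjamini-Hochberg over 32746 probe sets). Over all genes, only the early response gene FOS passed, which is 0.00305% of probe sets and 0.0073% of genes tested. At an unadjusted threshold of 0.05, 3 of the 36 genes had a higher mean with TCI04 (8.33%), against 2.89% of all genes. These were XBP1, SEC61B and EDEM3. Another 2, WFS1 and CRELD1, had a lower mean (5.56%), against 4.23% of all genes. In either direction these were 5 of 36, against 7.12% of all genes.

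The differences were small throughout the group. Log2 fold changes, TCI04 over PBS, ran from -0.49 for CRELD1 to 0.21 for XBP1. The 95% interval lay within 2-fold for all 36 genes and within 1.5-fold for 33 of them, the exceptions being WFS1, CRELD1 and OS9. The intervals reached 0.18 to each side at the median, against 0.28 over all genes. This comparison was not matched for signal level. Bright probe sets had smaller standard errors, such as 0.05 for CANX against 0.19 for CRELD1, and most of the ER genes were bright.

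**Figure D1:**
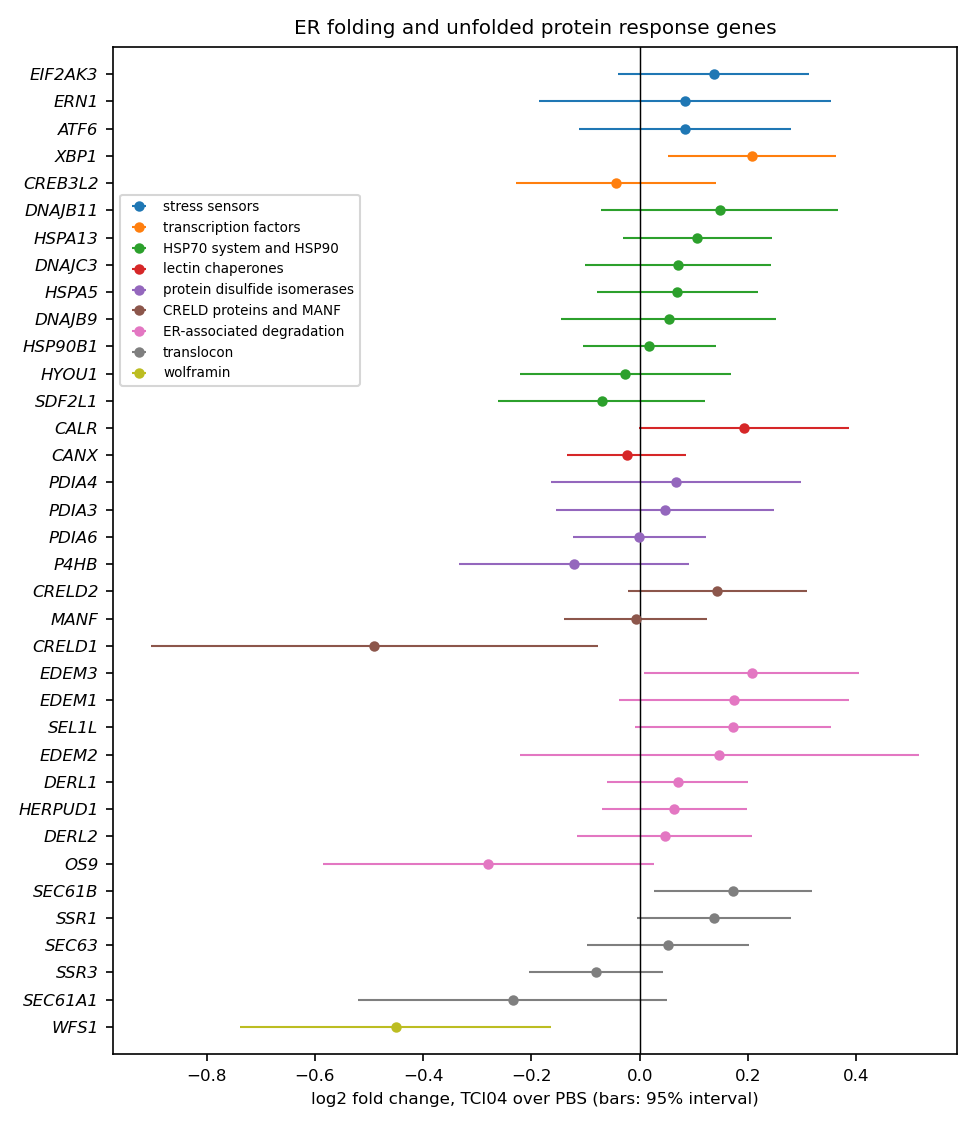
Log2 fold change of each of the 36 genes, TCI04 over PBS, on the log2(signal + 10.96) scale, with 95% intervals from limma (3 arrays per group), coloured by role. All intervals lie within 2-fold, WFS1 and CRELD1 sit lowest at -0.45 and -0.49, and XBP1 and EDEM3 sit highest at 0.21 each.

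By count, 24 of the 36 genes had a higher mean and 12 a lower mean with TCI04 (66.7% higher), against 49.3% higher over all 13704 genes. The median log2 fold change was 0.07 for the ER genes and -0.00 for all genes. The share over all genes was larger among brighter ones. With a filter at the 60th percentile, which all 36 ER genes passed, 54.2% of 10321 genes were higher, with a median of 0.01. The figures for the ER genes also depend on the probe set used. When the log2 values of all tested probe sets of a gene were averaged, 17 of the 36 had a higher mean and the median turned to -0.00, with -0.03 and 41.9% higher over all genes. Centring the arrays on their medians, which added 0.06 to every log2 fold change, gave 29 of 36 higher, against 63.6% of all genes. The groups did not overlap for 4 genes with higher signals in TCI04 (11.1%, against 6.64% of all genes), namely EIF2AK3, XBP1, HSPA13 and SEL1L. They did not overlap for 2 genes with lower signals (5.56%, against 6.91%), namely WFS1 and CRELD1. In either direction these were 6 of 36, against 13.6% of all genes.

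The median deviation of the 36 genes from the mean of the PBS arrays, on the log2 scale, was 0.06, 0.03 and 0.07 in TCI04 replicates 1, 2 and 3. It was -0.02, 0.01 and 0.02 in PBS replicates 1, 2 and 3. All 3 TCI04 arrays lay above all 3 PBS arrays in this summary, though TCI04 replicate 2 only narrowly so. The same median over all genes was -0.01, -0.00 and 0.03 in TCI04 replicates 1, 2 and 3, and 0.00, -0.00 and 0.01 in PBS replicates 1, 2 and 3. TCI04 replicate 3 was the highest of the 6 arrays for 11 genes and the lowest for 4, and PBS replicate 1 was the lowest for 10.

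**Figure D2:**
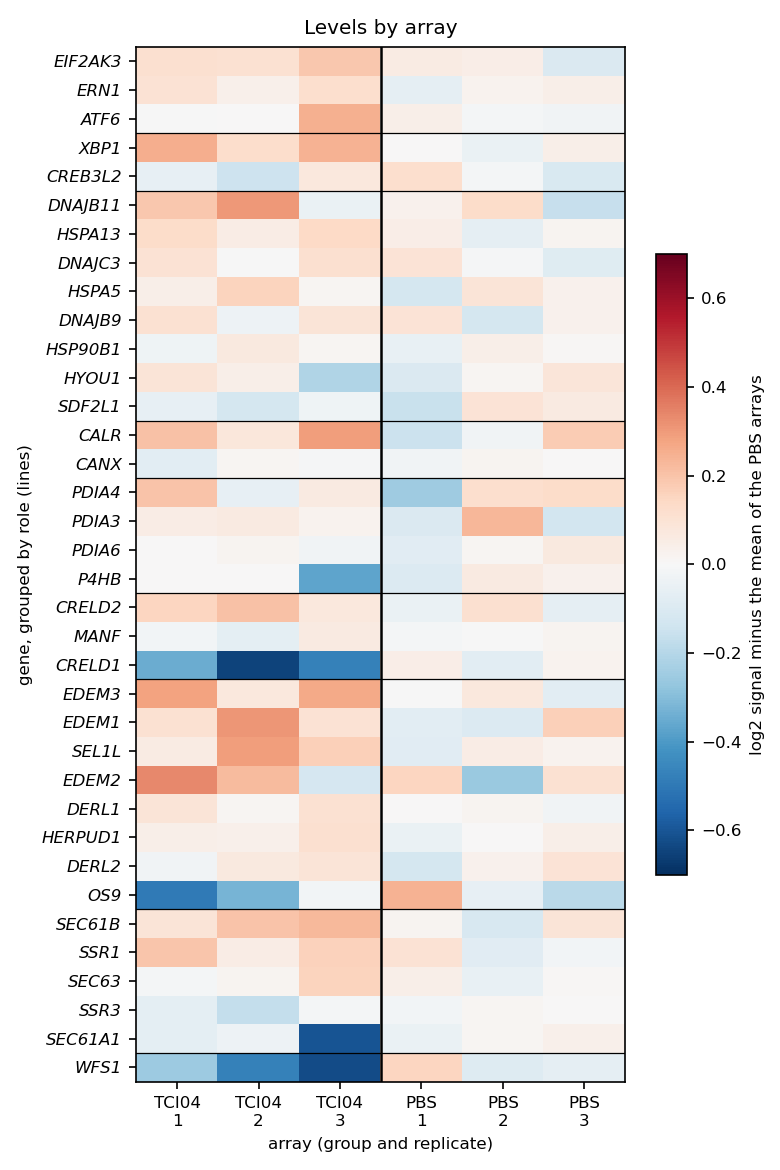
Log2 signal of the 36 genes in each array minus the mean of the PBS arrays, with rows grouped by role and the TCI04 arrays to the left of the PBS arrays. Most cells are pale. WFS1 and CRELD1 are low in all 3 TCI04 arrays, while SEC61A1, P4HB and HYOU1 are low in TCI04 replicate 3 and near the PBS level in the other 2 TCI04 arrays.

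Among the 3 sensors, each had a slightly higher mean with TCI04 and none passed the test. EIF2AK3 (PERK) had signals of 1263, 1259 and 1330 with TCI04, against 1213, 1203 and 1087 with PBS. Its groups did not overlap, but the lowest TCI04 array stood only just above the highest PBS array, and the log2 fold change was 0.14 with a 95% interval from -0.04 to 0.31 (limma, adjusted p = 0.711). It was 0.09 without PBS replicate 3. ERN1 (IRE1) had signals of 290, 276 and 294 with TCI04, against 257, 275 and 277 with PBS. These groups overlapped, with a log2 fold change of 0.08 (limma, adjusted p = 0.878) that was 0.05 without PBS replicate 1, and the other probe sets of ERN1 gave -0.29 and -0.11. ATF6 had signals of 1249, 1255 and 1491 with TCI04, against 1289, 1238 and 1229 with PBS. Only TCI04 replicate 3 stood above the PBS arrays, and the log2 fold change of 0.08 became 0.00 without that array and 0.13 without TCI04 replicate 1. A dimmer ATF6 probe set had 475, 401 and 602 with TCI04 against 381, 370 and 350 with PBS, a log2 fold change of 0.39 (limma, adjusted p = 0.699), and the remaining 2 probe sets gave -0.03 and -0.07.

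XBP1, the transcription factor downstream of IRE1, had the highest log2 fold change of the group. Its signals were 2381, 2166 and 2361 with TCI04, against 1995, 1928 and 2053 with PBS. All TCI04 arrays lay above all PBS arrays, and the means were 2303 ± 119 with TCI04 and 1992 ± 62.6 with PBS (SD, n = 3 arrays each), 1.16-fold higher. On the log2 scale XBP1 differed by 0.21 (standard error 0.07, 95% interval 0.05 to 0.36), which failed the correction (limma, adjusted p = 0.699). The dimmer XBP1 probe set gave 0.29, with overlapping groups. The signal is of XBP1 mRNA as a whole, and the form spliced by IRE1 was not analysed here. CREB3L2, an ER-anchored transcription factor that is released by proteolysis like ATF6, had a log2 fold change of -0.04 with an interval from -0.23 to 0.14. Its dimmest probe set, close to the filter, had signals of 49.4, 40.5 and 50.8 with TCI04 against 6.27, 37.1 and 40.2 with PBS, and the difference rests largely on PBS replicate 1.

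The ER HSP70 system showed no member past the test. HSPA5 (BiP), the main ER HSP70 and the usual marker of ER stress, had signals of 13112, 14215 and 12893 with TCI04, against 11734, 13582 and 13043 with PBS. The groups overlapped, and the log2 fold change was 0.07 with an interval from -0.08 to 0.22 (limma, adjusted p = 0.811), so a rise of HSPA5 mRNA by 1.5-fold or more lay outside the interval. It was 0.03 without TCI04 replicate 2, 0.11 without PBS replicate 2 and 0.01 without PBS replicate 1. HSP90B1 (GRP94), the ER form of HSP90, had signals of 8441, 9043 and 8709 with TCI04, against 8321, 8865 and 8683 with PBS. Its log2 fold change was 0.02 (limma, adjusted p = 0.947) and turned to -0.00 with averaged probe sets and to -0.01 without PBS replicate 1 or without TCI04 replicate 2. Both genes carry an ERSE, as printed above.

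HSPA13, a microsomal HSP70-type ATPase, had signals of 3947, 3743 and 3990 with TCI04, against 3727, 3463 and 3660 with PBS. The groups stood apart by a narrow margin, the log2 fold change was 0.11 (limma, adjusted p = 0.712), and its other probe set gave 0.10. DNAJB11, DNAJC3 and DNAJB9 are among the J-domain partners of BiP. DNAJB11 had signals of 5905, 6384 and 5005 with TCI04 and 5293, 5670 and 4623 with PBS, a log2 fold change of 0.15 with overlapping groups. It was 0.07 without TCI04 replicate 2 or without PBS replicate 3, and 0.25 without TCI04 replicate 3. DNAJC3 and DNAJB9 had log2 fold changes of 0.07 and 0.05. A dimmer DNAJC3 probe set had 186, 153 and 160 with TCI04 against 265, 234 and 221 with PBS, a log2 fold change of -0.50 without overlap (limma, adjusted p = 0.699). The remaining DNAJC3 probe sets gave -0.49 and -0.05, with overlapping groups. Across 20 processing alternatives the log2 fold change of DNAJC3 ran from -0.24 to 0.13, and its sign held in 19. HYOU1, a nucleotide exchange factor for BiP, had -0.03, and SDF2L1, a partner of DNAJB11, had -0.07. Of these 8 chaperone genes, 6 had a higher and 2 a lower mean.

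**Figure D3:**
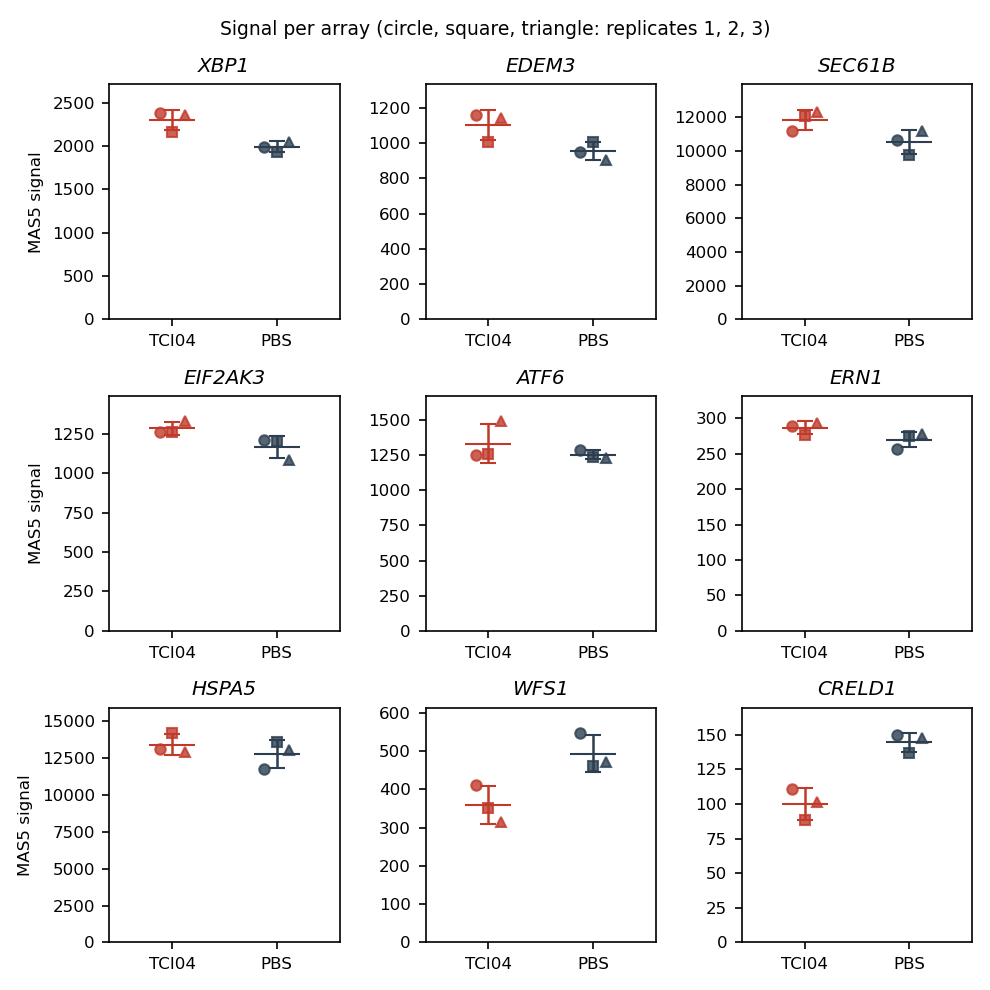
MAS5 signal of 9 genes in each array, TCI04 at the left and PBS at the right of each panel, with the mean as a horizontal line and the SD as an error bar (n = 3). XBP1 and EIF2AK3 do not overlap between groups and are higher with TCI04, WFS1 and CRELD1 do not overlap and are lower, and EDEM3, SEC61B, ATF6, ERN1 and HSPA5 overlap.

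The lectin chaperones calreticulin and calnexin bind glycoproteins that carry a trimmed sugar. CALR had signals of 6203, 5690 and 6593 with TCI04, against 4852, 5280 and 6081 with PBS. PBS replicate 3 lay within the range of the TCI04 arrays. The log2 fold change was 0.19 with an interval from -0.00 to 0.39 (limma, adjusted p = 0.699), and it was 0.12 without PBS replicate 1. The probe sets of CALR disagreed. A dim one had 226, 228 and 148 with TCI04 against 248, 269 and 239 with PBS, a log2 fold change of -0.34 without overlap, and the remaining one gave -0.02. CANX had a log2 fold change of -0.02 and an interval from -0.13 to 0.08.

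The protein disulfide isomerases form and rearrange disulfide bonds in new proteins. PDIA4, PDIA3 and PDIA6 had log2 fold changes of 0.07, 0.05 and -0.00, with overlapping groups. P4HB, the classical member of the family, had signals of 10240, 10255 and 7912 with TCI04, against 9572, 10694 and 10445 with PBS. TCI04 replicate 3 alone was below the PBS arrays. Its log2 fold change was -0.12, and 0.00 without TCI04 replicate 3. The dimmer P4HB probe sets were also lowest there. One had 1026, 1064 and 248 with TCI04 against 1435, 1345 and 1224 with PBS, a log2 fold change of -1.02, and the other had 2329, 2257 and 789 against 2625, 2491 and 2409, a log2 fold change of -0.64 (limma, adjusted p = 0.699 for each). All 3 TCI04 arrays lay below all PBS arrays in both, with replicate 3 far below the others.

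CRELD2 and MANF are small ER proteins whose genes are known targets of ER stress. CRELD2 had signals of 2374, 2464 and 2250 with TCI04, against 2068, 2308 and 2041 with PBS, a log2 fold change of 0.14 with overlapping groups. MANF had a log2 fold change of -0.01 and an interval from -0.14 to 0.12. CRELD1, a paralogue of CRELD2, had signals of 111, 88.2 and 101 with TCI04, against 150, 137 and 147 with PBS. All TCI04 arrays lay below all PBS arrays, and the means were 100.2 ± 11.5 with TCI04 and 145 ± 6.83 with PBS (SD, n = 3 each). The log2 fold change of -0.49 had an interval from -0.90 to -0.08 and failed the correction (limma, adjusted p = 0.699). It was measured by 1 probe set only.

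In ER-associated degradation, misfolded proteins are recognised, moved to the cytosol and given to the proteasome. Of the 8 measured genes, the mean was higher with TCI04 for 7 and lower for 1. The median log2 fold change was 0.11, and none passed the test. EDEM3, EDEM1 and EDEM2 encode mannosidase-like proteins that mark glycoproteins for disposal. EDEM3 had signals of 1161, 1004 and 1145 with TCI04, against 952, 1005 and 903 with PBS. TCI04 replicate 2 lay just below PBS replicate 2, and the log2 fold change was 0.21 with an interval from 0.01 to 0.41 (limma, adjusted p = 0.699). Its other probe sets gave 0.11 and -0.07. EDEM1 had 1473, 1699 and 1468 with TCI04 and 1297, 1280 and 1538 with PBS, a log2 fold change of 0.17, or 0.10 without TCI04 replicate 2. EDEM2 had a log2 fold change of 0.15 with a wide interval from -0.22 to 0.52.

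SEL1L, the partner of the ligase SYVN1, had signals of 1657, 1947 and 1787 with TCI04, against 1505, 1649 and 1617 with PBS. The lowest TCI04 array was only just above the highest PBS array, and the log2 fold change was 0.17 (limma, adjusted p = 0.699), or 0.11 without TCI04 replicate 2. A dimmer SEL1L probe set went the other way, with 135, 191 and 128 with TCI04 against 217, 244 and 218 with PBS, a log2 fold change of -0.57. The remaining SEL1L probe sets had the sign of the chosen one, at 0.20 and 0.07. The average over its probe sets was -0.03. The membrane proteins DERL1, DERL2 and HERPUD1 had log2 fold changes of 0.07, 0.05 and 0.06. OS9, a lectin that hands substrates to SEL1L, was the one gene of this class with a lower mean, at 835, 937 and 1163 with TCI04 and 1398, 1133 and 1035 with PBS. Its groups overlapped, the log2 fold change was -0.28 with an interval from -0.59 to 0.03, and it was -0.41 without TCI04 replicate 3, -0.17 without TCI04 replicate 1 and -0.16 without PBS replicate 1.

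The translocon carries new proteins into the ER. SEC61B, its beta subunit, had signals of 11186, 12096 and 12302 with TCI04, against 10671, 9734 and 11189 with PBS. PBS replicate 3 was level with TCI04 replicate 1, and the log2 fold change was 0.17 with an interval from 0.03 to 0.32 (limma, adjusted p = 0.699). SEC61A1, which forms the channel itself, had 3003, 3065 and 2069 with TCI04 against 3041, 3172 and 3225 with PBS. TCI04 replicate 3 stood far below the other arrays, and the log2 fold change of -0.24 became -0.05 without it. The dimmer SEC61A1 probe set was also lowest in that array, at 288, against 759 and 790 in the other TCI04 arrays and 678 to 1087 with PBS. SSR1 and SSR3, subunits of the translocon-associated complex, had log2 fold changes of 0.14 and -0.08, and SEC63, which links the channel to BiP, had 0.05.

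WFS1 encodes wolframin, an ER membrane protein that is mutated in Wolfram syndrome. It had the smallest p of the group, with signals of 411, 352 and 315 with TCI04, against 548, 461 and 471 with PBS. All TCI04 arrays lay below all PBS arrays, and the means were 359 ± 48.5 with TCI04 and 494 ± 47.6 with PBS (SD, n = 3 each), a ratio of 1.37. On the log2 scale WFS1 differed by -0.45 (standard error 0.13, 95% interval -0.74 to -0.16), which failed the correction (limma, adjusted p = 0.699). It was -0.36 without TCI04 replicate 3. The dimmer WFS1 probe set gave -0.10, with overlapping groups.

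Agreement between the probe sets of a gene was limited. Of 53 other tested probe sets of these genes, 23 had the sign of the chosen one and 30 the opposite sign. Among 26 genes with more than 1 tested probe set, all signs were the same for 7. The other probe sets are the dimmer ones of each gene. The chosen probe sets of HSP90B1, CALR, PDIA6 and OS9 are of the _x_at type, which may also hybridise to similar transcripts.

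**Figure D4:**
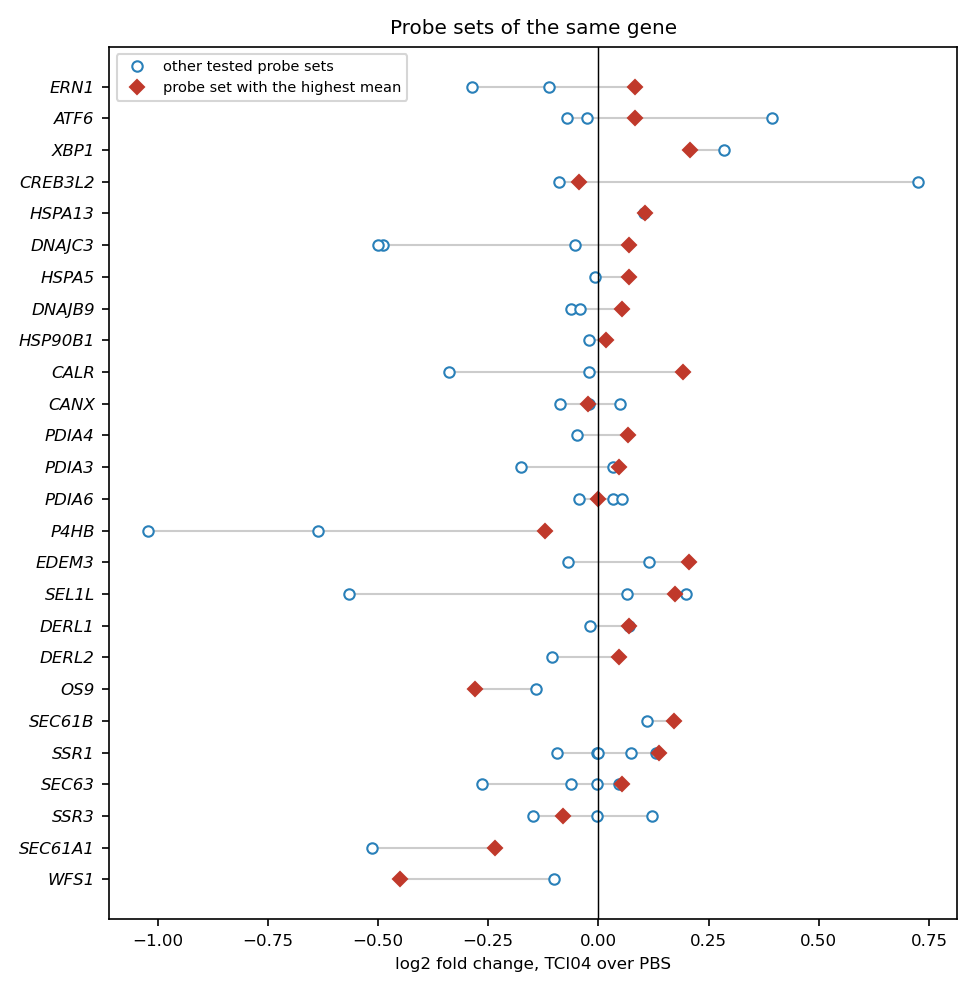
Log2 fold change, TCI04 over PBS, of every tested probe set of the 26 genes with more than 1, with a filled diamond for the probe set of highest mean and open circles for the others. The circles reach -1.02 for P4HB, -0.57 for SEL1L and 0.73 for CREB3L2, and most genes have probe sets on both sides of 0.

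The fold changes were set beside the ERSE as a description. Of the 7 genes with the element, 5 had a higher mean and the median log2 fold change was 0.07, with values from -0.02 for CANX to 0.21 for XBP1. Of the 27 other measured genes with a promoter window, 17 had a higher mean and the median was 0.06. Outside the ER group, 8 tested genes carried an ERSE, of which 4 had a higher mean. The ERSE-II genes HERPUD1, HYOU1 and SDF2L1 had 0.06, -0.03 and -0.07.

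The wider pathway was described by 8 further lists with 121 genes, of which 113 were measured and none passed the test (limma, smallest adjusted p = 0.699). At the unadjusted threshold 3 of the 113 had a higher and 7 a lower mean, against 2.89% and 4.23% of all genes. In all, the means were higher for 65 and lower for 48 (57.5% higher, against 49.3% of all genes). The median log2 fold change was 0.02. Of 14 outputs of the PERK and ATF4 branch, 8 had a higher mean and the median was 0.04. At the unadjusted threshold 1 of the 14 was higher (CEBPG) and 2 were lower (PPP1R15A and SESN2). CEBPG had a log2 fold change of 0.20 and SESN2 had -0.42, each without overlap (limma, adjusted p = 0.699 for each). Their other probe sets gave 0.10 and -0.25. DDIT3 (CHOP), ATF4 and TRIB3, like CEBPG and SESN2 named after their values were seen, had log2 fold changes of 0.08, -0.00 and -0.01. The dimmer TRIB3 probe set gave -0.62, with overlapping groups. The intervals were -0.18 to 0.33 for the stress-induced factor DDIT3 and -0.16 to 0.15 for ATF4. PPP1R15A (GADD34), which directs dephosphorylation of eIF2-alpha, had the smallest p of this list, with 460, 482 and 295 with TCI04 against 628, 612 and 519 with PBS. TCI04 replicate 3 was the lowest of the 6 arrays, the groups did not overlap, the log2 fold change was -0.52 (limma, adjusted p = 0.699), and its other probe set gave -0.51.

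The remaining lists gave counts near an even split or small medians. COPII and ER to Golgi transport had 12 of 17 genes with a higher mean and a median of 0.02. Its leading gene by p was MCFD2, a cargo receptor subunit, with 9362, 8814 and 9170 with TCI04 against 8281, 7790 and 7314 with PBS, a log2 fold change of 0.23 (limma, adjusted p = 0.699). The dimmer MCFD2 probe sets gave -0.02 and -0.10. Of 11 oligosaccharyltransferase genes, 8 had a higher mean and the median was 0.03, and DAD1, a subunit of that enzyme, had the smallest p at -0.09. Of 11 ER oxidoreductases, 7 were higher by mean, with a median of 0.04, and ERO1B had the smallest p at a log2 fold change of 0.30.

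Other ER folding factors had 10 of 17 genes with a higher mean and a median of 0.04. At the unadjusted threshold, however, 1 of the 17 was higher and 4 were lower, against 2.89% and 4.23% of all genes. The higher one was NUCB2, and the lower ones were PRKCSH, PPIB, SDF4 and ATP2A2. PPIB, SDF4 and ATP2A2 had their lowest signal in TCI04 replicate 3. Here PRKCSH, the beta subunit of glucosidase II, had the smallest p at -0.41, and its dimmer probe set gave -1.40. That dimmer probe set had 107, 18.3 and 31.5 with TCI04 against 128, 113 and 146 with PBS. TCI04 replicates 2 and 3 were under 37.0, the signal set for the filter, where fold changes are uncertain. Other factors of ER-associated degradation had 10 of 19 genes with a higher mean, a median of 0.01, and the mannosidase MAN1B1 with the smallest p at -0.26. In the list of ATF6 processing, 3 of 7 genes had a higher mean. MBTPS2, the site-2 protease that releases ATF6, had 0.10 with other probe sets at -0.31 and -0.58, the latter from dim signals of 10.1 to 68.3. In the list of other translocon and signal recognition genes, 7 of 17 were higher by mean, and SRP72 led by p at 0.09. A dimmer SRP72 probe set gave -0.08 with groups that did not overlap in the opposite direction, and the others gave 0.00 to 0.09.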

How the data were processed

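Gene expression was measured on Affymetrix arrays in 6 samples, 3 per group. The authors deposited linear intensity values, one for each probe set in each array. MAS5 is named in the submitters' processing notes, without a version. The trimmed mean is equal on all arrays, so these values had been scaled per array. Detection calls were not used here.

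Of 54675 probe sets, controls (62) and those whose mean signal was below the 40th percentile (37.0) were removed, and 32746 were tested. Values became log2(signal + 10.96), with the 20th percentile of the table as offset. The test was limma 3.58.1 in R 4.3.3 (eBayes with a variance trend, two-sided), with Benjamini-Hochberg adjustment over all probe sets tested. A single gene symbol was annotated for 41097 probe sets, and the 1801 with several were not named. The fit was tested on simulated data with known changes. That test is not used as evidence about the small differences of the ER genes.

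Genes given by array were the 3 sensors, XBP1, HSPA5, HSP90B1, genes under an unadjusted p of 0.05, genes whose groups did not overlap and the 3 highest and 3 lowest log2 fold changes. Further genes given by array, and the dimmer probe sets described, were chosen after their values were seen. Each of the 8 wider lists gave its gene with the smallest p. The genes and lists were chosen with earlier results of these data known. Promoter sequences are from RefSeq, GRCh38.p14, with a window for 35 of the 37 listed genes, and protein sequences were not used here. The number of arrays limits the precision.

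The alternatives tried were median centring, quantile normalization, offsets of 1 and of the table median, no filter, a filter at the 60th percentile, averaged probe sets, omission of probe sets named _x_at or _s_at, eBayes with no trend or with robust settings, array weights, a replicate block, an ordinary t statistic and each array left out. A filter on the mean log2 value was added after the data were seen.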

Additional observations from a re-analysis of the deposited data

How the results depend on the processing

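No ER gene and none of the wider pathway genes passed the adjusted threshold in any of the 20 alternatives (limma, with an ordinary t statistic as 1 of them). The smallest adjusted p of an ER gene was 0.451, under the replicate block. At the unadjusted threshold that block gave 6 higher and 2 lower ER genes, against 3 and 2 without it. Over all genes these shares were 3.25% and 5.31% with the block, against 2.89% and 4.23% without it. Deviations of same-numbered arrays from their group means correlated at 0.00686, 0.0678 and 0.0554, and 6 of 6 arrays correlated best with their own number. Such deviations cancel out within a group, so these matches are not independent and cannot decide whether the arrays were paired. The design names no pairs, and the arrays were not treated as pairs. The filter on the mean log2 value, added after the data were seen, gave 24 genes higher by mean, as reported, and a smallest adjusted p of 0.697. The median log2 fold change of the ER genes, reported as 0.066, was 0.0439 after quantile normalization (26 genes higher by mean), 0.126 with median centring (29 higher) and -0.0047 with averaged probe sets (17 higher). The median over all genes, reported as -0.00250, was 0.0155, 0.0578 and -0.0330 in these settings, and median centring by construction adds 0.0603 to every log2 fold change. With single arrays left out the median of the ER genes was 0.0465 to 0.0742, with 21 to 27 of them higher by mean. The genes higher without overlap, reported as 4, were 10 with median centring and 2 with averaged probe sets, where 11.3% and 4.94% of all genes were so, against 6.64% as reported. They were 7, 8 and 9 without PBS replicates 1, 2 and 3, and 5, 11 and 7 without TCI04 replicates 1, 2 and 3. Those lower without overlap, reported as 2, were 4 after quantile normalization (5.38% of all genes) and with averaged probe sets (9.17%), and 2 to 6 with single arrays left out, with 6 without PBS replicate 1 and 5 without TCI04 replicate 3. Fewer arrays make such separation more frequent, and over all genes it was 9.89% to 13.3% higher and 11.1% to 13.6% lower with single arrays left out. Of the other probe sets, 23 had the sign of the chosen one as reported, 35 with median centring, whose common shift turns small values to a positive sign, and 7 when _x_at and _s_at probe sets were omitted, which also left 28 ER genes. The 1 probe set called over all genes became 0 when eBayes had no trend and with the ordinary t statistic, and 0 to 1 with single arrays left out, the 1 without TCI04 replicate 3. Of 14 genes followed, 10 kept their sign throughout. Most of the 14 were picked from these data for small p, groups without overlap or extreme fold changes, so they do not stand for the whole group. Among the ER genes not followed, PDIA6 kept its sign in 13 of 20 alternatives, HYOU1 in 15 of 19 and CREB3L2 in 16 of 20. DERL1, DNAJB11 and SSR1 kept theirs in all 20. With averaged probe sets CALR gave -0.056, ERN1 -0.105, HSP90B1 -0.00199 and SEL1L -0.032. CALR gave -0.339 when _x_at and _s_at probe sets were omitted. Leaving out single arrays gave -0.00768 (without TCI04 replicate 2) to 0.0419 for HSP90B1, and -0.00758 without PBS replicate 1. The cause of these turns was not tested.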
